A study of Mus musculus with 14 samples.

Results

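The immediate early genes described here were Fos, Fosb, Jun, Junb, Egr1, Atf3, Ier2, Nr4a1, Dusp1 and Zfp36. They were chosen by symbol and matched to the gene IDs of the count tables through the GENCODE mouse annotation. All 10 were among the 56980 genes counted and among the 22339 genes that passed the filter on low counts, a total above 10 over all libraries. Reads were counted in 14 libraries, each from the whole kidney of 1 wild-type (WT) female CD-1 mouse, an outbred stock, at 18 weeks of age. Term non-diabetic mice (T-ND, n = 4) were born vaginally, stayed with their own mothers and were not treated. Term diabetic mice (T-D, n = 4) were born and raised in the same way and received a low-dose course of STZ, a toxin of the insulin-producing beta cells, in early adulthood. Preterm non-diabetic mice (PT-ND, n = 3) were delivered by Caesarean section shortly before term and raised by foster mothers that had been given acepromazine, and they were not treated. Preterm diabetic mice (PT-D, n = 3) had the same delivery and fostering and then the STZ course. Early birth, surgical delivery, fostering and acepromazine cannot be told apart in any comparison of preterm with term mice. The STZ course was repeated in some PT-D mice of the study but never in T-D, and the labels do not tie this to libraries. What all 4 groups shared was the procedure of collection, with cationic ferritin as a contrast agent and tribromoethanol as the anaesthetic. It also included a saline flush and a clamp that kept the fixative out of the kidney used for RNA.

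Immediate early genes are transcribed within minutes of a stimulus, from factors already present in the cell such as SRF, the ELK proteins and CREB, which kinases of the MAPK pathways switch on. Their mRNAs are short-lived, so that a level reflects the recent past of the tissue, including injury, ischaemia and handling. The FOS and JUN proteins and ATF3 combine into dimers, among them AP-1, that bind DNA, while DUSP1 and ZFP36 shut the response down by dephosphorylating the kinases and by speeding the decay of short-lived mRNAs. In whole-kidney RNA, fewer cells that express a gene and less RNA of that gene per cell cannot be told apart.

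The promoters of 4 of the genes are shown because of what is described below, a spread between libraries (Fos, Fosb), a low level in T-ND (Atf3) and a full CRE (Dusp1). Each is the stretch of 150 bases before the annotated start, from the RefSeq promoter table on build GRCm38.p6, written 5′ to 3′ on the strand of the gene, and capitals mark the CRE core, the letters TGACG on either strand, which CREB and ATF proteins can bind.
Fos: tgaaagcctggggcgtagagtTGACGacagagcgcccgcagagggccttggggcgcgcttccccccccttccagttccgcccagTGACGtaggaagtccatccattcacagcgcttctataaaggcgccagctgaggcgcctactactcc
Fosb: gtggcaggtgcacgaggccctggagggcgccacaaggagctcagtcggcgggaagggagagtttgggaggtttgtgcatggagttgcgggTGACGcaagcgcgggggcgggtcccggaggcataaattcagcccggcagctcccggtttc
Atf3: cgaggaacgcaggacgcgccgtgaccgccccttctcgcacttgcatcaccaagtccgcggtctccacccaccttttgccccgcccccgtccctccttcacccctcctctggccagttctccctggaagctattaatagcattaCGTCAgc
Dusp1: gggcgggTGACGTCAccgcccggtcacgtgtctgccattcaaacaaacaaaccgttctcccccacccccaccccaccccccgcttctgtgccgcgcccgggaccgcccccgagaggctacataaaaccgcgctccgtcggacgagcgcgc
They lie at chr12:85473740-85473889 on the plus strand for Fos, and on the minus strand at chr7:19310046-19310195 for Fosb, chr1:191183334-191183483 for Atf3 and chr17:26508473-26508622 for Dusp1. The table held 8 of the 10 genes, all but Egr1 and Ier2. The CRE core was found in 6 of these 8 (Fos, Fosb, Junb, Atf3, Nr4a1 and Dusp1), and in 13.3% of the 32851 promoters in the table over the same 150 bases. The full CRE, TGACGTCA, which contains the core on both strands, was found in Dusp1 alone of the 8 and in 1.36% of all promoters. The AP-1 motif TGANTCA was in none of the 8 and in 4.24% of all. TATAAA, searched on the strand of the gene, was in Fos, 33 bases before the start, and in 4.84% of all. A CArG box, the element bound by SRF, was in Zfp36 and in 0.916% of all, on either strand. These matches describe the letters in this window and were not tested for binding.

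Counts on genes lay between 16697246 and 28673176 per library, with a median of 18765582. Values are given in CPM, read counts scaled by library size with TMM factors, in the order of the replicate numbers. A gene was called where its adjusted p in edgeR was under 0.05 and its log2 fold change was larger than 1 in size, with the Benjamini-Hochberg adjustment made over all genes tested. The names of 5 libraries end in a suffix, the letter a, whose meaning the labels do not give. They are replicate 1 of PT-D, replicate 1 of T-D, replicate 2 of PT-ND, and replicates 1 and 2 of T-ND. According to the RNA quality sheet of the study, the suffixed libraries came from the more concentrated RNA. Libraries also stood apart in these genes. PT-D replicate 1 was the highest of the 14 libraries for 6 of the 10 genes and among the highest 3 for 9. T-ND replicate 4 was the lowest for 5 genes and among the lowest 3 for all 10. T-ND replicate 3 was above the other T-ND libraries for Fosb, Jun, Atf3, Dusp1 and Zfp36. Results that rest on these libraries are given with and without them. Without T-ND replicate 4, edgeR called 0 of the 10 genes in each comparison that uses it. Of all genes edgeR then called 0.135% in PT-D against T-ND, 0.0674% in T-D against T-ND, 0.027% in PT-ND against T-ND and 1.94% in the interaction.

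**Figure D1:**
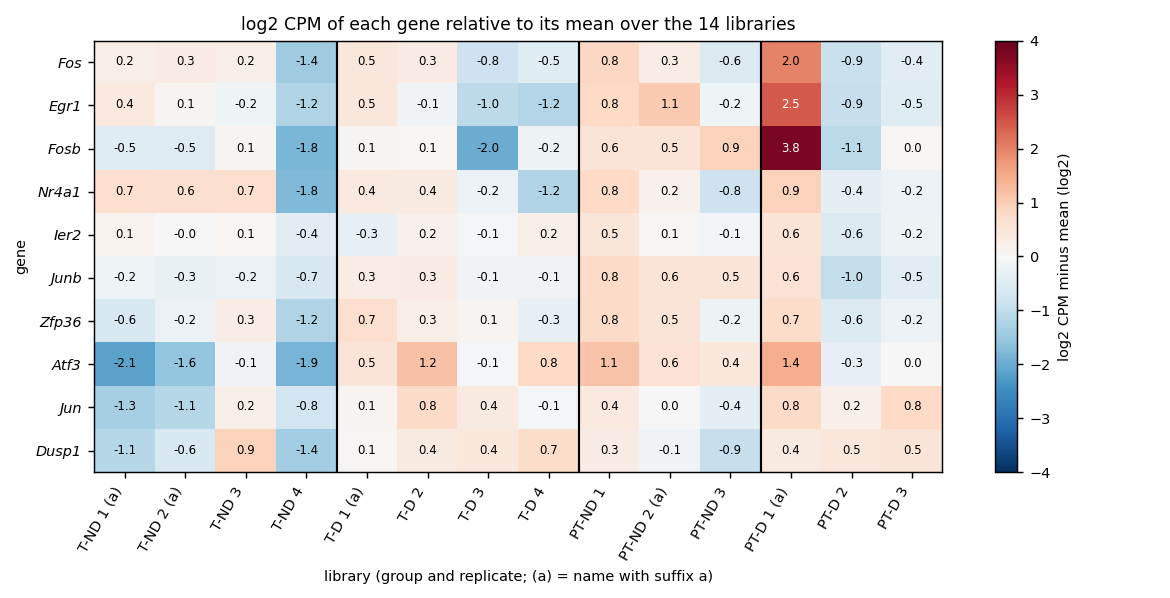
Each cell is the log2 CPM of a gene (rows) in a library (columns, by group and replicate) minus that gene's mean over the 14 libraries. PT-D replicate 1 is high in the upper rows, from Fos to Nr4a1, T-ND replicate 4 is low in all rows, and Atf3, Jun and Dusp1 are low in 3 of the 4 T-ND libraries.

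The levels of the 10 genes spanned a wide range. Per kilobase of annotated exon, the mean level in T-ND was highest for Dusp1 at 45.7 ± 38.0 CPM per kb (SD, n = 4), followed by Zfp36 at 30.7 ± 13.1, Junb at 30.5 ± 4.22 and Ier2 at 20.6 ± 3.30. Jun at 14.4 ± 7.97, Egr1 at 9.18 ± 3.69 and Fos at 7.83 ± 3.30 CPM per kb came next, ahead of Atf3 at 3.97 ± 2.91, Nr4a1 at 2.21 ± 1.13 and Fosb at 0.128 ± 0.0674. In this order the neighbours Junb and Ier2, Fos and Atf3, and Nr4a1 and Fosb differed by more than either SD, and the other 6 pairs of neighbours did not. The lengths are unions over all annotated transcripts, 10903 bases for Nr4a1 and 6243 for Fosb, so that the level of a gene read mainly as a short transcript is understated.

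Fos (chromosome 12, 85520658 to 85524047, on GRCm39 as are all gene positions that follow) encodes the AP-1 subunit that gives the family its name. It was at 21.8, 23.3, 21.9 and 6.85 CPM in T-ND, at 25.8, 23.3, 10.5 and 13.2 in T-D, at 33.2, 22.9 and 12.5 in PT-ND and at 73.6, 9.93 and 13.8 in PT-D. The 4 groups overlapped, and within PT-D the highest library was 7.41 times the lowest. Fosb (chromosome 7, 19036621 to 19043976), a FOS relative with little background expression, was at 0.822, 0.813, 1.29 and 0.266 CPM in T-ND, at 1.29, 1.26, 0.226 and 1.02 in T-D, at 1.80, 1.79 and 2.34 in PT-ND and at 17.5, 0.521 and 1.23 in PT-D. Behind these values stood 5 to 41 reads in 13 libraries and 388 reads in PT-D replicate 1, and within PT-D the highest library was 33.6 times the lowest. The 3 PT-ND libraries lay above all T-ND and T-D libraries, and the PT-D libraries lay on both sides of them.

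Jun (chromosome 4, 94937271 to 94940459) encodes the main partner of FOS. It was at 27.8, 32, 83.3 and 41.2 CPM in T-ND, at 75.9, 118, 89.8 and 66.6 in T-D, at 92.8, 70.6 and 55.0 in PT-ND and at 121, 81.5 and 122 in PT-D. For Jun, 3 of the 4 T-ND libraries were below every other library, and T-ND replicate 3 was within the range of the other groups. Junb (chromosome 8, 85701113 to 85705359), a JUN relative that often opposes it, was at 80.5, 74.1, 77.4 and 58.0 CPM in T-ND, at 113, 116, 83.1 and 82.2 in T-D, at 154, 134 and 131 in PT-ND and at 138, 46.6 and 66.1 in PT-D. All T-D and PT-ND libraries were above all T-ND libraries, while 2 of the 3 PT-D libraries were below the median of T-ND. Atf3 (chromosome 1, 190902493 to 190950241), a stress-induced factor of the ATF family, was at 4.99, 7.45, 20.2 and 6.06 CPM in T-ND, at 32, 50.2, 21.1 and 38.2 in T-D, at 49.2, 32.9 and 30.1 in PT-ND and at 60.5, 17.7 and 22.5 in PT-D. The T-ND libraries were below all T-D and PT-ND libraries, and T-ND replicate 3 was above 1 PT-D library.

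Egr1 (chromosome 18, 34992876 to 34998049) encodes a zinc finger factor that serum and growth factors induce. It was at 58.3, 48.0, 39.6 and 19.2 CPM in T-ND, at 60.6, 40.1, 21.4 and 19.6 in T-D, at 76.1, 91.5 and 38.8 in PT-ND and at 243, 23.3 and 31.6 in PT-D. The PT-D libraries held the highest value of all and 2 values below the median of T-ND. Nr4a1 (chromosome 15, 101151980 to 101172681), an orphan nuclear receptor, was at 30.6, 29.5, 30.6 and 5.53 CPM in T-ND, at 25.1, 24.3, 16.0 and 8.14 in T-D, at 33, 21.4 and 10.6 in PT-ND and at 36.1, 14.7 and 16.2 in PT-D. Its groups overlapped throughout. Ier2 (chromosome 8, 85387960 to 85389483), a nuclear protein of the early growth response, spanned 24.2 to 35.4 CPM in T-ND, 25.9 to 38.0 in T-D, 29.5 to 44.8 in PT-ND and 21.5 to 47.6 in PT-D.

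Dusp1 and Zfp36 are the genes that end the response. Dusp1 (chromosome 17, 26724564 to 26781102), the phosphatase of p38 and JNK, was at 82.6, 118, 339 and 68.2 CPM in T-ND, at 190.4, 233, 243 and 299.7 in T-D, at 227, 165 and 95.5 in PT-ND and at 232, 249 and 259 in PT-D. The PT-D libraries were within 1.12 times of each other and above all PT-ND libraries, whereas T-ND replicate 3 was the highest of all 14. Zfp36 (chromosome 7, 28076209 to 28079710), which encodes tristetraprolin, was at 88.6, 115, 167 and 59.6 CPM in T-ND, at 217, 165, 147 and 108 in T-D, at 232, 193 and 119 in PT-ND and at 226, 92.7 and 116 in PT-D, and its groups overlapped. Other annotated genes covered 528 exonic bases of Jun (Junos), 318 of Junb (Prdx2 and Gm65321), 656 of Nr4a1 (Gm63180), 125 of Zfp36 (Gm44710) and 38 of Dusp1 (Ergic1). These overlaps are from GENCODE M39, and since the libraries carry no strand, reads there could not be assigned to 1 gene and the levels of these 5 genes may be understated.

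**Figure D2:**
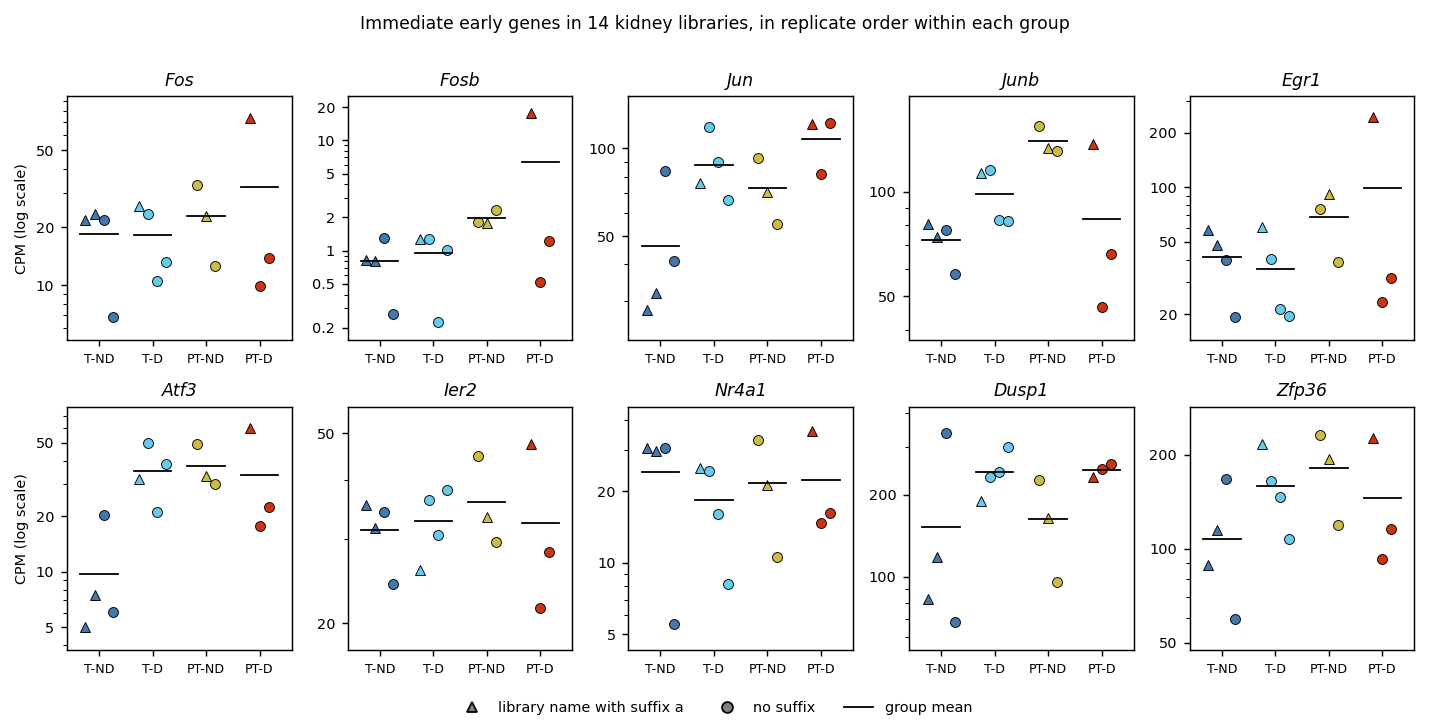
CPM on a log scale for each gene in each library, with groups on the horizontal axis, triangles for libraries with the suffix a, circles for the others and a line at the arithmetic mean of the group. PT-D replicate 1, the triangle in PT-D, is far above the 2 other PT-D libraries for Fos, Fosb and Egr1 and close to them for Dusp1.

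Preterm mice with STZ were first set against untreated term mice, the pair that differs in both exposures. The fitted folds of Jun, Atf3 and Fosb were 2.33, 3.45 and 7.95 in favor of PT-D, but none of the 10 genes passed the test. The call rule took 0 of 10 in edgeR, against 1.45% of the 22310 genes tested, and 0 of 10 had groups that did not overlap, against 23.2%. At an unadjusted p under 0.05 there were 3 of 10 (24.3% of all genes), and DESeq2 called 1, Jun, where it called 6% of all genes. DESeq2 gave no p for Egr1. The log2 fold change was 1.22 ± 0.34 (SE) for Jun (edgeR adjusted p = 0.0737, DESeq2 adjusted p = 0.00795), 1.79 ± 0.53 for Atf3 (edgeR adjusted p = 0.0853) and 2.99 ± 1.03 for Fosb (edgeR adjusted p = 0.120). The median log2 fold change of the 10 genes was 0.75 and that of all genes 0.03, and 9 of 10 were positive.

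These values moved with single libraries. Without PT-D replicate 1 the log2 fold change was 0.11 ± 0.64 for Fosb, -0.65 ± 0.43 for Fos, -0.60 ± 0.37 for Egr1 and -0.38 ± 0.19 for Junb, where all 7 libraries gave 2.99 for Fosb, 0.81 for Fos, 1.27 for Egr1 and 0.20 for Junb. That of Jun was 1.13 ± 0.39 and that of Atf3 1.04 ± 0.49. Without T-ND replicate 4 it was 1.17 ± 0.39 for Jun, 1.62 ± 0.59 for Atf3, 2.71 ± 1.14 for Fosb and 0.54 ± 0.64 for Fos. Without T-ND replicate 3 the call rule took 3 of 10 genes, Jun at 1.67 ± 0.21 (edgeR adjusted p = 0.00507), Dusp1 at 1.45 ± 0.20 (0.00662) and Atf3 at 2.43 ± 0.43 (0.0131), and the call rate over all genes was 4.8%. In the 4 libraries of these groups without the suffix, the log2 fold change was 0.69 ± 0.34 for Jun and -0.29 ± 0.48 for Fos. Of the 10 genes 0 were called there, against 0.316% of all genes. PT-D replicate 1 had the largest mitochondrial share of counts of all libraries, 16.9%, and the highest summed level of the 11 leukocyte markers, 275 CPM against 168 and 183 in the 2 other PT-D libraries, and of the 8 endothelial markers, 599.9 CPM. It also had the highest sum of the 5 podocyte markers, 658 CPM, and the lowest sum of the proximal tubule markers, 7305 CPM. The order by the leukocyte sum did not hold for each marker. Ptprc and Adgre1, the leukocyte markers called in a comparison below, were lowest in PT-D replicate 1 among the PT-D libraries. Ptprc was at 12.3 CPM there against 13.9 and 17.2, and Adgre1 at 6.58 against 9.78 and 9.37. T-ND replicate 3 had the smallest mitochondrial share, 8.53%. The part of these measures in the result was not tested.

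**Figure D3:**
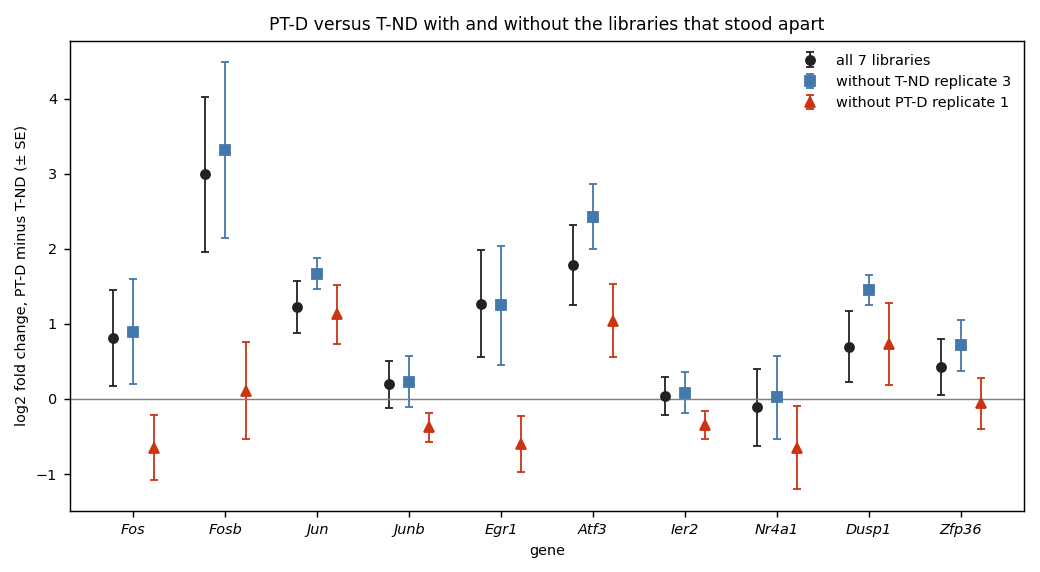
log2 fold change, PT-D minus T-ND, with bars of 1 SE from edgeR, for each gene with all 7 libraries (circles), without T-ND replicate 3 (squares) and without PT-D replicate 1 (triangles). Fos, Junb and Egr1 change sign without PT-D replicate 1, and Jun, Atf3 and Dusp1 are larger with smaller errors without T-ND replicate 3.

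PT-D against T-D asks what preterm birth adds among mice given STZ. No immediate early gene was called (0 of 10 in edgeR, against 0.193% of all 22294 genes, and 0 of 10 in DESeq2, against 4.52%), and no gene had groups that did not overlap, against 23% of all. DESeq2 gave no p for Fosb and Egr1, so its count rests on the other genes. At an unadjusted p under 0.05 there were 2 of 10 (22.3% of all), Fosb at a log2 fold change of 2.79 ± 0.97 (edgeR adjusted p = 0.128) and Egr1 at 1.5 ± 0.68 (edgeR adjusted p = 0.218). Both values rested on PT-D replicate 1. Without it, Fosb was at -0.12 ± 0.71 and Egr1 at -0.39 ± 0.40, and Junb at -0.83 ± 0.24 and Atf3 at -0.83 ± 0.30 had the smallest p, with edgeR adjusted p = 0.142 and 0.185.

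T-D against T-ND sets STZ apart in term mice, and Atf3 had the smallest p among the 10 genes. Mean Atf3 in T-D was 35.4 ± 12.1 CPM (SD, n = 4), beside 9.69 ± 7.11 (n = 4) for T-ND, with a log2 fold change of 1.84 ± 0.41, and this did not pass the edgeR threshold (adjusted p = 0.139) but did in DESeq2 (adjusted p = 0.00116). In edgeR 0 of 10 genes were called, against 0.0673% of 22275 genes, 3 had an unadjusted p under 0.05 (11.8% of all), namely Atf3, Jun at 0.91 ± 0.31 and Junb at 0.43 ± 0.17, and DESeq2 called Atf3 alone (1.76% of all). Junb and Atf3 were the 2 of 10 genes whose groups did not overlap, against 6.66% of all genes. Without T-ND replicate 3 edgeR called Atf3 at 2.51 ± 0.29 (adjusted p = 0.00284), Dusp1 at 1.43 ± 0.23 (0.0109) and Jun at 1.38 ± 0.22 (0.0116), against 1.3% of all genes. Without T-ND replicate 4, Atf3 was at 1.67 ± 0.44 (edgeR adjusted p = 0.295), and Nr4a1 was at -0.73 ± 0.32 with an unadjusted p = 0.0404. In these term mice Fos, Fosb, Egr1 and Nr4a1 had group means of 18.2, 0.949, 35.4 and 18.4 CPM in T-D and of 18.5, 0.799, 41.3 and 24.1 CPM in T-ND.

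PT-ND against T-ND sets preterm birth apart without STZ, and Junb had the smallest p. The 3 PT-ND libraries averaged 139.8 ± 12.7 CPM (SD, n = 3) and the 4 T-ND libraries 72.5 ± 10, a 1.93-fold difference with no overlap. Its log2 fold change of 0.95 ± 0.14 had an edgeR adjusted p = 0.0553 and a DESeq2 adjusted p = 4.96e-06, and the fold was below the call rule in both. In edgeR 0 of 10 genes were called, against 0.0809% of 22254 genes, and 4 had an unadjusted p under 0.05 (10.7% of all), namely Junb, Atf3 at 1.95 ± 0.42, Fosb at 1.30 ± 0.48 and Zfp36 at 0.75 ± 0.31. DESeq2 called 1 of 10, Atf3 (adjusted p = 0.000943), against 1.1% of all genes. Fosb, Junb and Atf3 were the 3 of 10 genes whose groups did not overlap, against 11% of all. Without T-ND replicate 3 edgeR called Atf3 at 2.58 ± 0.24 (adjusted p = 0.000914), against 0.432% of all genes, and Junb had an adjusted p = 0.0273 at 0.97 ± 0.16. Without T-ND replicate 4, Junb was at 0.84 ± 0.14 (edgeR adjusted p = 0.134) and Atf3 at 1.76 ± 0.45 (0.401).

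PT-D against PT-ND sets STZ apart in preterm mice, and the genes lay on both sides of 0. Jun at a log2 fold change of 0.57 ± 0.22 and Dusp1 at 0.60 ± 0.26 were positive and Junb at -0.75 ± 0.32 was negative, each with an unadjusted p under 0.05, and the edgeR adjusted p were 0.110, 0.145 and 0.146. By the call rule 0 of 10 were taken in edgeR, against 4.95% of 22303 genes, and 0 of 10 in DESeq2, against 8.61%, and the 3 genes at an unadjusted p under 0.05 compare with 29.1% of all. DESeq2 gave no p for Fosb. Dusp1 alone of the 10 had groups that did not overlap, against 34.4% of all genes. Without PT-D replicate 1 edgeR called Junb at -1.31 ± 0.19 (adjusted p = 0.00399) and Egr1 at -1.32 ± 0.31 (0.0233), against 5.19% of all genes, and Atf3 at -0.90 ± 0.23 had an adjusted p = 0.0330. In the 4 libraries without the suffix Junb was called at -1.34 ± 0.23 (adjusted p = 0.0123), against 3.47% of all genes.

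**Figure D4:**
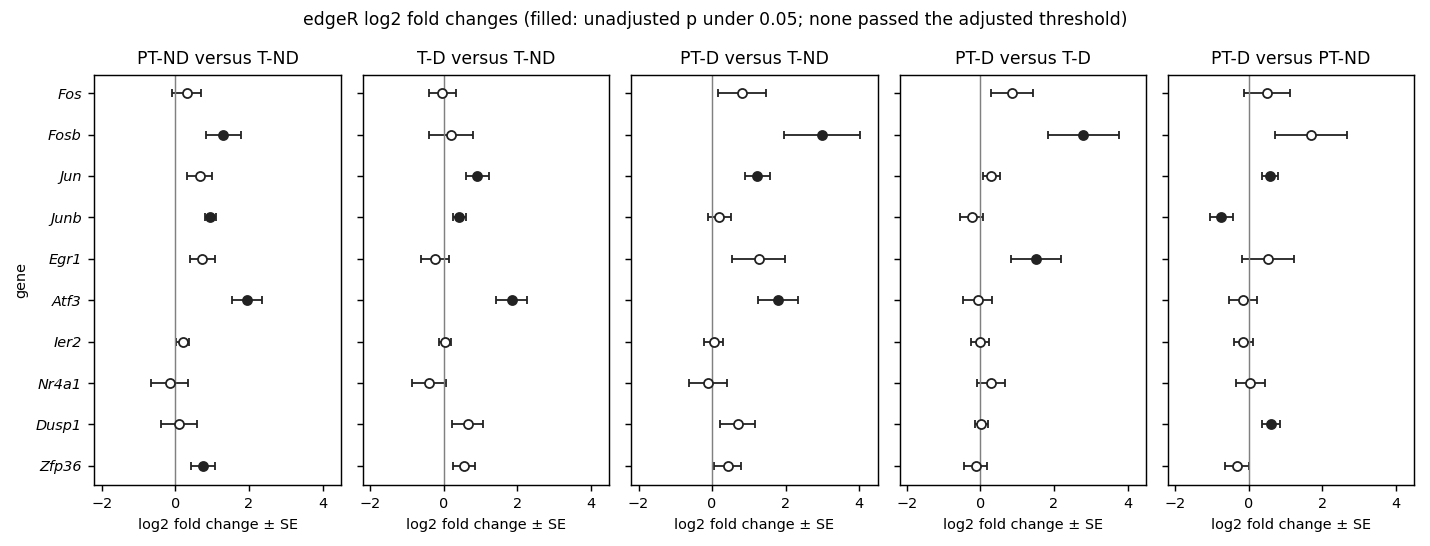
Log2 fold change with 1 SE for the 10 genes in the 5 comparisons of groups, from edgeR, on a common axis. Filled points have an unadjusted p under 0.05. No point passed the adjusted threshold, and the error bars of Fosb and Egr1 are widest in the comparisons with PT-D.

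Whether STZ acted differently in preterm and term mice was tested as an interaction, (PT-D minus PT-ND) minus (T-D minus T-ND). Junb at -1.19 ± 0.38 (edgeR adjusted p = 0.0707) and Atf3 at -2.02 ± 0.66 (0.0741) came closest, with positive values for STZ in term mice and negative ones in preterm mice, and no other gene of the 10 had an unadjusted p under 0.05 (2 of 10, against 24.5% of all genes). In edgeR 0 of 10 were called, against 4.45% of 22339 genes, and DESeq2 called these 2 genes (adjusted p = 0.0226 and 0.0167), against 11% of all. Without PT-D replicate 1 edgeR called both, Junb at -1.75 ± 0.27 (adjusted p = 0.0111) and Atf3 at -2.76 ± 0.63 (0.0344), against 3.24% of all genes. Without T-ND replicate 3 it called Atf3 at -2.67 ± 0.55 (0.0286), against 2.48% of all genes. Without T-ND replicate 4 the adjusted p was 0.124 for Junb, at -1.09 ± 0.40, and 0.128 for Atf3. With the 9 libraries without the suffix, Junb was at -1.81 ± 0.35 (adjusted p = 0.0664) and Atf3 at -2.45 ± 0.67 (0.104).

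The library-name suffix was tested across all 14 libraries in a fit that also held the 4 groups. Egr1 at a log2 difference of 1.45 ± 0.33, Fos at 1.03 ± 0.37 and Junb at 0.41 ± 0.18 were positive at an unadjusted p under 0.05, with the suffix against without, which was 3 of 10 genes and 5.57% of all genes. In edgeR 0 of 10 genes were called and 0% of all genes, with 1244 genes at an unadjusted p under 0.05, and the adjusted p of Egr1 was 0.348. DESeq2 called Egr1 (adjusted p = 0.00964) and 0.152% of all genes. Without PT-D replicate 1, which carries the suffix, the difference was 0.91 ± 0.24 for Egr1 and 0.51 ± 0.32 for Fos. Since 2 of 4 T-ND libraries and 1 library of each other group carry it, the suffix is spread over the groups but not evenly.

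Across the 14 libraries the 10 genes were compared pair by pair. Over the 45 pairs the Pearson correlation of log2 CPM was positive in all, with a median of 0.61 and a range from 0.02 to 0.93, and 24 pairs had a permutation p of r under 0.05 after Benjamini-Hochberg adjustment over the 45, 20 of them also by Spearman's rho. Fos and Egr1 were closest (r = 0.93, adjusted permutation p = 0.00045 from 100000 permutations, whose smallest p is 1e-05, rho = 0.88, adjusted permutation p = 0.0027). Without the 2 libraries farthest from the median of Fos, r was 0.85, without PT-D replicate 1 it was 0.87, and in the 9 libraries without the suffix it was 0.88. Deviations of the same pair from the group means gave 0.95. Fos and Nr4a1 gave r = 0.84 (adjusted permutation p = 0.0027), rho = 0.85 (0.00562), 0.81 without the 2 farthest libraries and 0.86 in the 9.

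Jun and Atf3 (r = 0.82, adjusted permutation p = 0.00567, rho = 0.62, 0.0476) and Jun and Dusp1 (r = 0.80, adjusted permutation p = 0.00575, rho = 0.64, 0.0440) were the closest pairs outside these genes. Without the 2 libraries farthest from the median of Jun these were 0.63 and 0.74, and in the 9 libraries without the suffix they were 0.60 and 0.76. Fos and Jun gave r = 0.28 (adjusted permutation p = 0.424) with rho = 0.31 (0.384), and r was -0.14 without the 2 libraries farthest from the median of Fos and 0.60 in the 9 libraries without the suffix. Egr1 and Dusp1 gave r = 0.02 (adjusted permutation p = 0.943) with rho = -0.24 (0.489). In the 5 libraries with the suffix no value is given, since they are too few.

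**Figure D5:**
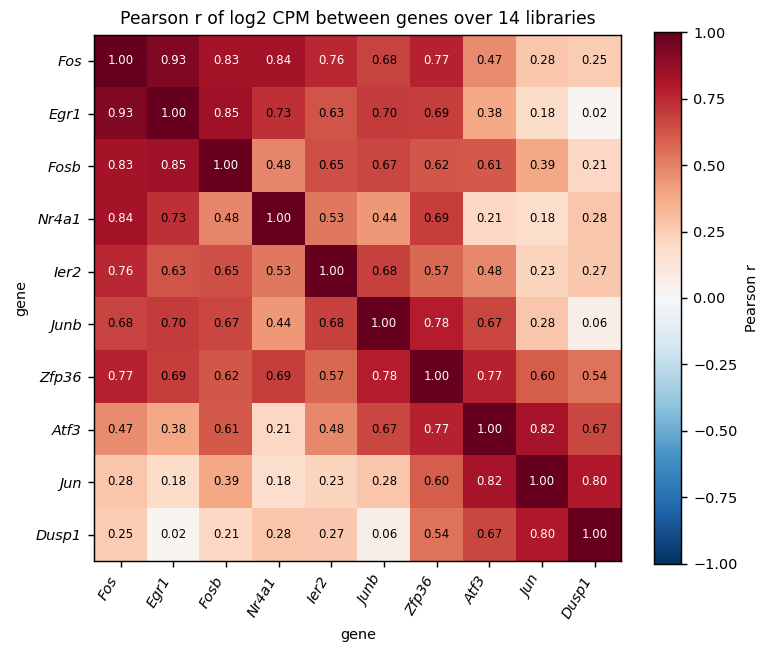
Pearson r of log2 CPM between each pair of genes over the 14 libraries, with both axes listing the genes in the same order and color running from -1 to 1. Fos has values of 0.93 with Egr1, 0.83 with Fosb and 0.84 with Nr4a1 in the upper left, Jun has 0.82 with Atf3 and 0.80 with Dusp1 in the lower right, and Dusp1 has 0.02 with Egr1.

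The protein-coding genes most like the mean standardized level of the 10 were sought among the 11626 whose mean was 50 normalized counts or more. They were Pold1 (r = 0.86), Ppp1r15a (0.83), Flvcr1 (0.82), Hbegf (0.81), Slfn3 (0.80), Csf2ra (0.78), Pola2 (0.77), Rasd1 (0.77), Itpkb (0.76) and Cxcl2 (0.76), each over 14 libraries. Pold1 and Pola2 encode subunits of DNA polymerases, Hbegf a growth factor of the EGF family, Ppp1r15a a stress-induced phosphatase subunit and Cxcl2 a neutrophil chemokine. Ppp1r15a is on the list of other early genes below. Of the 10, 5 were also among the first 10 by Spearman's rho and 4 by the deviations from group means.

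A list of 48 other immediate early and early stress genes was tested in the same fits. In PT-D against T-ND, 6 of 48 were called higher and 0 lower, against 0.995% of all genes higher, and the median log2 fold change was 0.64 against 0.03 over all genes. They included Myc, a driver of growth (19.5 ± 2.22 CPM in PT-D, 8.44 ± 1.17 in T-ND, log2 fold change 1.2 ± 0.16, edgeR adjusted p = 0.0173), Klf6, a zinc finger factor (1.82 ± 0.27, 0.0203), the small MAF protein Maff (1.25 ± 0.24, 0.0324), the kinase Plk2 (1.40 ± 0.27, 0.0332) and the FOS relative Fosl2 (1.64 ± 0.32, 0.0354). Fosl2 was at 99.9, 96.4 and 106 CPM in PT-D and at 21.9, 17.0, 52.6 and 37.1 in T-ND. Unlike Fos and Fosb, it did not stand apart in PT-D replicate 1. DESeq2 called 11 of 48 higher, where it called 6% of all genes. In edgeR the count was 18 without T-ND replicate 3 (4.8% of all genes) and 2 without PT-D replicate 1 (0.988%). It was 0 without T-ND replicate 4 (0.135%) and 0 in the libraries without the suffix (0.316%). Without T-ND replicate 4 the log2 fold changes of the 6 genes were all above 1 and reached 1.76 for Klf6, with edgeR adjusted p from 0.0545 to 0.107. They were 1.24 to 1.91 without PT-D replicate 1, where Myc and Klf6 were the 2 called, and 0.89 to 1.70 in the libraries without the suffix, with edgeR adjusted p from 0.0513 to 0.16.

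Gadd45b, a stress gene that binds growth arrest proteins and kinases, was the 1 of 48 called higher in T-D against T-ND, beside 0.0539% of all genes, with 0 called lower. It was at 41.8, 43.7, 27.7 and 40.0 CPM in T-D and at 8.81, 9.89, 15.7 and 13.9 in T-ND (log2 fold change 1.65 ± 0.22, edgeR adjusted p = 0.0163). The median over the list was 0.73, and 26 of 48 were higher (5.57% of all genes) and 2 lower at an unadjusted p under 0.05. The count of calls was 17 without T-ND replicate 3 (1.3% of all genes), 15 with DESeq2 (1.76%) and 0 in the libraries without the suffix (0.00454%). In those libraries Gadd45b was at 1.32 ± 0.26 (edgeR adjusted p = 0.406). In PT-ND against T-ND edgeR called 0 of 48 (0.0809% of all genes), with 21 higher (5.55% of all genes) and 2 lower at an unadjusted p under 0.05. DESeq2 called 8 (1.1%). In edgeR the smallest p belonged to Maff at 1.55 ± 0.26 (edgeR adjusted p = 0.0690), Socs3 at 1.97 ± 0.33 (0.0731) and Nfkbia at 1.29 ± 0.23 (0.1002). Without T-ND replicate 3 edgeR called 9, against 0.432% of all genes. These comparisons share the T-ND libraries.

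With PT-D against PT-ND, 4 of 48 were called higher and 2 lower, against 2.96% and 1.99% of all genes. Ccn2, a matrix-associated target of TGF-beta and YAP, was at 116, 97.2 and 91.3 CPM in PT-D and at 38.2, 41.1 and 42.5 in PT-ND (log2 fold change 1.32 ± 0.15, edgeR adjusted p = 0.00178). The Krüppel-like factors Klf2 (1.38 ± 0.21, 0.00464), Klf4 (1.37 ± 0.24, 0.00804) and Klf6 (1.16 ± 0.23, 0.0110), of which Klf2 is known for its induction by flow in endothelium, were the others called higher. Cebpd, an acute-phase regulator, was at 55.1, 54.2 and 51.8 CPM in PT-D and at 142, 84.6 and 129.8 in PT-ND (-1.15 ± 0.19, 0.00682), and the kinase Plk3 was also lower (-1.44 ± 0.26, 0.00892). Without PT-D replicate 1 the 6 calls were kept and 8 were made, against 5.19% of all genes. In PT-D against T-D edgeR called 1 of 48, Cebpd, lower at -1.2 ± 0.20 (adjusted p = 0.0377), against 0.193% of all genes, and without PT-D replicate 1 it was at -1.24 ± 0.24 (adjusted p = 0.0865) and was not called.

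In the interaction 1 of 48 was called higher and 8 lower, against 1.98% and 2.46% of all genes, with a median of -0.60 against 0.07 over all genes. Nfkbia, the NF-kappaB inhibitor that NF-kappaB itself induces, averaged 82.1 ± 29.6 CPM in T-ND, 197 ± 12.8 in T-D, 201 ± 30.5 in PT-ND and 125 ± 9.51 in PT-D (-1.94 ± 0.29, edgeR adjusted p = 0.00722). Cebpd (-2.63 ± 0.40, 0.00722), Maff (-1.96 ± 0.37, 0.0186), Gadd45b (-2.32 ± 0.44, 0.0186) and Socs3, a feedback inhibitor of cytokine signaling (-2.44 ± 0.56, 0.0282), had the same sign of the interaction. Klf4 had the opposite sign (1.54 ± 0.33, 0.0244). The count was 13 without T-ND replicate 3 (2.48% of all genes), 6 without PT-D replicate 1 (3.24%) and 6 without T-ND replicate 4 (1.94%). It was 0 in the 9 libraries without the suffix, where 0.0537% of all genes were called. In those 9 libraries the interaction was -2.63 ± 0.42 for Cebpd (edgeR adjusted p = 0.0588), -2.49 ± 0.48 for Gadd45b (0.0664), -1.76 ± 0.36 for Nfkbia (0.0744) and 1.18 ± 0.40 for Klf4 (0.136). For the suffix itself edgeR and DESeq2 called 0 of 48, against 0% and 0.152% of all genes. In edgeR 6 of 48 had an unadjusted p under 0.05 (5.57% of all genes), and the smallest 3 were those of Plk2 (0.44 ± 0.16, adjusted p = 0.821), Klf6 (-0.49 ± 0.19, 0.837) and Mcl1 (-0.29 ± 0.12, 0.883).

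Markers of kidney cells and of other cells moved with some of these comparisons. Proximal tubule markers summed to 7305 to 11184 CPM over the 14 libraries, and podocyte markers to between 149.5 and 658 CPM. In PT-D against T-ND the podocyte markers Wt1 (1.19 ± 0.22), Synpo (1.24 ± 0.24) and Nphs1 (1.41 ± 0.31), the endothelial marker Cdh5 (1.55 ± 0.23) and the leukocyte marker Ptprc (1.10 ± 0.23) were called higher and Umod, of the loop of Henle, lower (-1.39 ± 0.26), that is 3 of 5, 1 of 8, 1 of 11 and 1 of 7 markers on their lists, where 0.995% of all genes were called higher and 0.453% lower. In PT-D against PT-ND 3 of 8 endothelial (Cdh5, Egfl7, Kdr), 2 of 5 podocyte (Synpo, Nphs1), 2 of 7 smooth muscle and fibroblast (Pdgfrb, Myh11) and 1 of 11 leukocyte markers (Adgre1) were called higher and Fxyd4 of the collecting duct lower, against 2.96% and 1.99% of all genes. In the interaction Egfl7 (2.16 ± 0.39), Kdr (1.83 ± 0.47) and Pdgfrb (1.51 ± 0.43) were called higher, that is 2 of 8 endothelial and 1 of 7 smooth muscle and fibroblast markers, against 1.98% of all genes. The endothelial markers summed to 376 to 424 CPM in T-ND, 225 to 414 in T-D, 320 to 520 in PT-ND and 470 to 599.9 in PT-D, and leukocyte markers to 121 to 189, 89.7 to 241, 165 to 180.2 and 168 to 275 CPM in the same order. No marker of adrenal gland or fat, in which Cfd reached 204 CPM in 1 library and was 0 in another, and no blood cell marker was called in any comparison. The part of the cell types in the values of the immediate early genes was not tested.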

How the data were processed

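The authors aligned the reads with STAR to GRCm39 and deposited raw read counts per gene, in which reads that overlap several genes or map to several places are not counted. The unstranded counts were used here, since the libraries were not stranded, and lay between 16697246 and 28673176 per library. Groups, replicate numbers and the library-name suffix came from the labels. The study names another GENCODE release than M39, which gave symbols, lengths and positions here and matched 56236 of the 56980 gene IDs without their version and 31972 with it. The immediate early genes and all gene lists were chosen with earlier results of these data known.

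Genes with a total above 10 counts over the 14 libraries were kept. Comparisons of 2 groups used only their libraries in the fit, while all 14 entered for the interaction and the suffix. The two-sided quasi-likelihood test of edgeR 4.0.16, run in R 4.3.3, was applied after TMM scaling, and p-values were adjusted by Benjamini-Hochberg. The SE of a log2 fold change is its size divided by the root of the test's F. CPM were scaled by TMM over the 14 libraries, and correlations used log2 CPM with a prior count of 2. DESeq2 1.42.0 was the main alternative, and its missing adjusted p-values were left missing. The genes named from the other early genes are those called, at most 5 per comparison and direction, or the 3 with the smallest p where none was called. Of the other lists, at most 3 called genes per list and comparison are named. The 10 genes most like the members are named whatever they are. The edgeR test was run on simulated data, where it recovered 99% to 100% of 200 genes given a log2 fold of 2, with 2 to 10 false calls. Every gene was simulated with the same spread, and only genes with many counts were changed. The simulation therefore does not give the power for the genes described here, which differed in spread and in counts. Libraries of 1 group differed by more than sampling noise, with a smallest chi-square per degree of freedom of 22.6, so none was counted as a duplicate. Each library is 1 mouse, and the mice are outbred.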

Additional observations from a re-analysis of the deposited data

Results flagged for a closer look

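Within the 20 values tested (10 genes in the 2 groups of 4 libraries), 3 stood far from the other libraries of their group by Dixon's ratio, the gap to the nearest library over the whole range. By chance about 1 in 20 is expected to do so. Fos in T-ND replicate 4 was low, with a ratio of 0.906 (6.85 CPM, the next library at 21.8). Nr4a1 in the same library was low, with a ratio of 0.957 (5.53 CPM, the next at 29.5). Atf3 in T-ND replicate 3 was high, with a ratio of 0.839 (20.2 CPM, the next at 7.45). PT-D and PT-ND hold 3 libraries each and were not tested in this way.

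In the interaction test of edgeR, 12 of the genes named from the lists were called for an unequal response to STZ in the preterm and the term kidneys. The call rule took 4.45% of all 22339 genes in this test. Genes of the lists were named mainly for being called, so the count of 12 was set by that rule. In the 9 libraries without the suffix 0 of the 48 early genes were called, against 0.0537% of all genes. The edgeR adjusted p of Plk3 was 0.0631 without T-ND replicate 4 and 0.0617 without PT-D replicate 1. The log2 differences were -1.94 for Nfkbia, -2.63 for Cebpd, -1.96 for Maff, -2.32 for Gadd45b, -2.44 for Socs3, -2.84 for Plk3, 1.54 for Klf4, 1.31 for the ETS factor Elk3 and 1.06 for the chaperone partner Bag3. Among the cell type markers they were 2.16 for Egfl7, 1.83 for Kdr and 1.51 for Pdgfrb. None of the 10 immediate early genes passed this test.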

How the results depend on the processing

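Of the 10 immediate early genes edgeR called 0 in each of the 7 comparisons, and the same count was found with RLE normalization, filterByExpr, the adjusted p alone and, for the 5 pairs of groups, the joint fit. DESeq2 called 1 in PT-D against T-ND (Jun), 1 in T-D against T-ND (Atf3), 1 in PT-ND against T-ND (Atf3), 2 in the interaction (Junb and Atf3), 1 for the suffix (Egr1) and 0 in the 2 other comparisons. It gave no p, and so no adjusted p, for Egr1 in PT-D against T-ND, nor for Fosb and Egr1 in PT-D against T-D, nor for Fosb in PT-D against PT-ND. With no filter on low counts edgeR called 2 in PT-D against T-ND (Jun and Atf3), 2 in PT-D against T-D (Fosb and Egr1), 1 in T-D against T-ND (Atf3), 1 in PT-D against PT-ND (Fosb), 1 in PT-ND against T-ND (Atf3), 2 in the interaction (Junb and Atf3) and 3 for the suffix (Fos, Fosb and Egr1). The suffix as a covariate gave 1 in the interaction (Junb). The 9 libraries without the suffix, an alternative chosen after seeing the data as were the leave-outs of the list of 48 genes, gave 1 in PT-D against PT-ND (Junb). The cause of these differences was not tested.

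Leaving out 1 library at a time gave 0 to 3 calls in PT-D against T-ND and in T-D against T-ND, 0 to 2 in PT-D against PT-ND and in the interaction, and 0 to 1 in PT-ND against T-ND, and the calls came without T-ND replicate 3 or PT-D replicate 1. In PT-D against T-ND the log2 fold change then ran from -0.65 to 1.23 for Fos, -0.38 to 0.48 for Junb and -0.60 to 1.73 for Egr1, and in PT-D against T-D from -0.12 to 3.34 for Fosb and -0.39 to 1.97 for Egr1. In the libraries without the suffix PT-D against T-ND gave -0.29 for Fos, -0.28 for Junb and -0.11 for Egr1. Over all genes, no filter on low counts moved the calls from 323 to 645 in PT-D against T-ND, 43 to 657 in PT-D against T-D, 15 to 109 in T-D against T-ND, 18 to 83 in PT-ND against T-ND and 0 to 133 for the suffix.

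The replicate numbers of the labels did not pair the libraries. Over 19 pairs with the same number the correlation of deviations ran from -0.21 to 0.31, with 4 above 0.1. With the replicate block 0 of 10 genes were called in each comparison, and the log2 fold change in PT-D against T-ND was -0.0857 for Fos and -0.0515 for Junb. Depth limits Fosb most, which had 5 to 41 reads in 13 libraries.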

Other observations

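Of the 21 upstream regulators of immediate early genes, such as Srf, Creb1 and the MAPK kinases, edgeR called 1, Elk3, and only in the interaction (1.31 ± 0.35, adjusted p = 0.0422). There it called 4.45% of all genes, so that 1 of 21 is near the share over all genes. Elk3 was at 10.6, 12.5 and 10.7 CPM in PT-D, at 9.85, 6.88 and 7.53 in PT-ND, at 5.6, 7.47, 5.54 and 3.44 in T-D and at 10.3, 12.6, 7.97 and 8.24 in T-ND.

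Heat shock genes were called higher in 3 comparisons, 1 of 10 in each. Hspa1b, an inducible HSP70, was higher in PT-D than in T-D (61.9, 84.9 and 130.2 CPM against 29.1, 27.3, 13.9 and 26.9, log2 fold change 1.92 ± 0.28, edgeR adjusted p = 0.0201), against 0.135% of all genes called higher. Hsph1 was higher in PT-D than in PT-ND (1.06 ± 0.31, edgeR adjusted p = 0.0470), against 2.96% of all genes called higher, and Bag3 was called in the interaction (1.06 ± 0.26, edgeR adjusted p = 0.0340), against 1.98%. Hspa1b in PT-ND spanned 11.6 to 154 CPM. Of the 12 hypoxia genes edgeR called 0 in each comparison, against at most 4.95% of all genes. Up to 6 of 12 had an unadjusted p under 0.05, in PT-D against PT-ND, where 29.1% of all genes did. DESeq2 called 1 in T-D against T-ND (1.76% of all genes) and 1 in PT-D against PT-ND (8.61%).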
